A study of Sus scrofa with 35 samples.

Results

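Genes of calcium handling in skeletal muscle were followed across the arrays of a heat challenge in pigs. The 10 genes are RYR1, CACNA1S, JPH1, ATP2A1, ATP2A2, SLN, PLN, CASQ1, CASQ2 and PVALB. Their probes were those whose gene name in the scanner files is one of these symbols, in any letter case, which gave 61 of the 60305 probes and 10 of the 11244 genes with a symbol. All 10 genes were measured, and 60 of the 61 probes passed the filter on signal over background.

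Castrated males of the Creole and Large White breeds and of the F1 between them gave the RNA, taken from the longissimus dorsi of the back. In each of these 3 genetic groups some pigs were sampled at thermoneutrality (TN) and some under heat stress (HS), with 1 array per pig. There were 6 arrays each for Creole TN, Creole HS, F1 TN, Large White TN and Large White HS, and 5 for F1 HS, which makes 35 arrays of the 36 pigs in the experiment. TN is labelled 24 °C and HS 30 °C, but 32 °C is the HS temperature in the growth protocol and in the study methods. According to those methods, all pigs entered 1 climatic room at 11 weeks of age, TN pigs were slaughtered before the temperature was raised, and HS pigs were slaughtered after 4 or 5 days of heat. Slaughter day, age and pen therefore differed between TN and HS pigs and cannot be told apart from temperature. Each genetic group was formed of 3 blocks of 4 littermates, which the labels do not tie to arrays, so that littermates were treated here as independent animals.

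A contraction starts when the voltage sensor of the muscle membrane, whose pore subunit is CACNA1S, opens the release channel RYR1 of the sarcoplasmic reticulum, at junctions that JPH1 helps to hold together. Calcium is then pumped back by the ATPases SERCA1 (ATP2A1, the form of fast fibres) and SERCA2 (ATP2A2, the form of slow fibres and of the heart), which the small membrane peptides sarcolipin (SLN) and phospholamban (PLN) restrain. Calsequestrins (CASQ1 in all fibres, CASQ2 in slow fibres and in the heart) bind calcium inside the store, and parvalbumin (PVALB) binds it in the cytosol of fast fibres. Calcium cycling by these proteins takes part in muscle heat production, and inherited changes of RYR1 cause malignant hyperthermia and the stress syndrome of pigs.

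All values are log2 of the quantile-normalised median spot intensity, so that a difference of 1 is a 2-fold change in signal. Each gene is described by its kept probe of highest mean, and the other probes are given beside it. An intensity depends on the probe as well as on the transcript, so the level of a probe was never compared with that of another. HS was compared with TN by limma in a model with breed and temperature, and p-values were adjusted over all 41517 kept probes by the Benjamini-Hochberg method. In pieces of whole muscle, fewer cells of a type and less RNA per cell cannot be told apart.

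The share of probes well above background ranged from 58.4% to 75.9% between arrays, and no spot was saturated. On the log2 scale, the unnormalised signal had a 75th percentile of 9.05 ± 0.17 (SD, n = 18) with TN and 9.24 ± 0.24 (SD, n = 17) with HS arrays. All 7 skeletal muscle markers were measured, and their mean lay between 17.00 and 17.60 on every array. Of the 6 cardiac markers MYH6 and NPPB were not kept. The other 4 were each well above background on all 35 arrays, with mean log2 values from 7.61 to 18.87. A pair of HS arrays stood apart from the rest of their groups. Creole HS replicate 1 gave the lowest value of its group for 8 of the 10 genes and Large White HS replicate 5 for 9 of the 10. Both arrays were bright, with 75th percentiles of 9.57 and 9.62 in that order, the latter the highest of the 35 arrays. The part of brightness in their low values was not tested. Because they stood apart, results were also computed without this pair of low arrays, and 3 of the 4 genes that passed for temperature did so again. Over all 41517 kept probes, 6654 passed for temperature with every array and 4468 without the pair.

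The probes lay at different places along the transcripts. The 60-base probes below belong to the release channel, the pumps and the calsequestrins, and are shown so that a reader can see which stretches were measured. A_72_P088506 is the highest-mean probe of RYR1. The others are further probes of their genes, whose own differences are given beside those of the highest-mean probes, which are not printed for ATP2A2, CASQ1 and CASQ2. Each is printed 5′ to 3′ in lower case as the array file gives it. The 4 probes of RYR1 start at base 15108, 14883, 14425 and 11961 of the transcript sequence recorded in the file, in the order printed, and the others at base 494 (ATP2A1), 2908 (ATP2A2), 920 (CASQ1) and 854 (CASQ2).
RYR1 A_72_P088506: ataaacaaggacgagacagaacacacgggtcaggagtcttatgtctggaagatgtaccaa
RYR1 A_72_P648503: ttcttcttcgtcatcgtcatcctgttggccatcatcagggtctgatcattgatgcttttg
RYR1 A_72_P536998: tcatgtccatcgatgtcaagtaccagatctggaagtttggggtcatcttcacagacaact
RYR1 A_72_P458783: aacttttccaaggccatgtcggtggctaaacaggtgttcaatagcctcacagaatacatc
ATP2A1 A_72_P417112: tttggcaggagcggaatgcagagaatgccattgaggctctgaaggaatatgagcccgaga
ATP2A2 A_72_P576059: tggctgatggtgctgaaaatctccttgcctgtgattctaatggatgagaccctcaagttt
CASQ1 A_72_P414408: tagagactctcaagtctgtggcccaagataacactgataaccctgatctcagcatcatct
CASQ2 A_72_P306059: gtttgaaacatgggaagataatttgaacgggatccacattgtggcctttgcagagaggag

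Many probes of a gene shared bases and were not separate measurements. Counting probes with a common run of at least 20 bases as 1 stretch, the 5 RYR1 probes covered 5 stretches and the 3 CASQ2 probes covered 3. The 5 ATP2A1 probes covered 3 stretches, the 21 ATP2A2 probes 13, the 5 CASQ1 probes 4, the 12 SLN probes 5 and the 7 PLN probes 4. CACNA1S, JPH1 and PVALB had a single probe each. The 2 ATP2A2 probes A_72_P505287 and O4122 were identical in sequence.

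To see which steps of calcium handling differed between HS and TN pigs whatever the breed, the 10 genes were compared over all 35 arrays. ATP2A1, CACNA1S and RYR1 were lower in HS pigs, CASQ2 was higher, and the other 6 did not pass the test. Thus 4 of 10 genes passed, beside 16.0% of all probes tested (8.30% lower and 7.73% higher in HS pigs). Over probes, 12 of 60 passed, 9 of them lower and 3 higher, with a median difference of -0.15 over the 10 genes, beside -0.02 over all probes. Levels of the 10 genes in each group are plotted by array. The share of all probes with as little overlap between HS and TN arrays was not computed. Counts of arrays outside the range of another group are therefore not read as a trait of these genes.

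**Figure D1:**
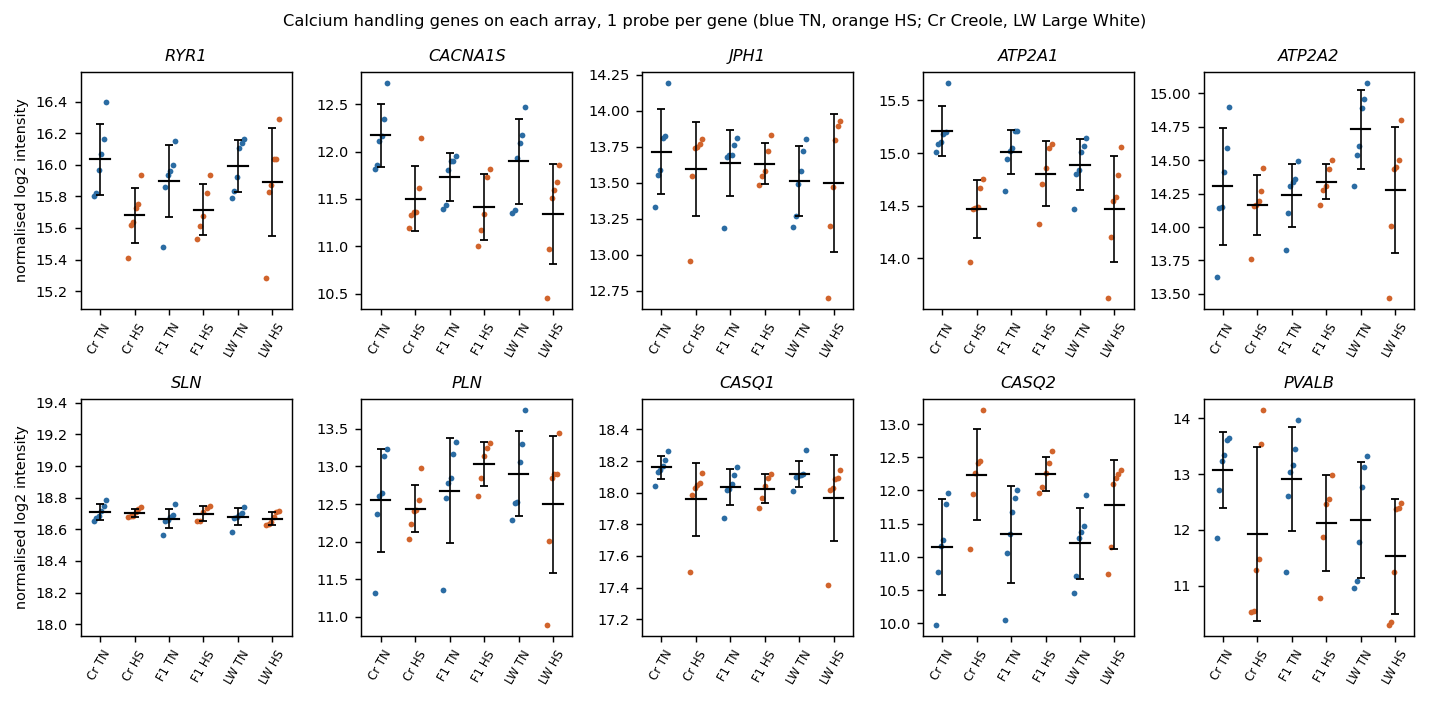
Normalised log2 intensity (y axis) of the highest-mean probe of each of the 10 genes on each array, by breed and temperature (x axis), with TN arrays in blue, HS arrays in orange, and the mean and SD of each group in black. ATP2A1 was lower on all 6 Creole HS arrays than on any Creole TN array, and CASQ2 exceeded every TN array on 12 of 17 HS arrays, whereas SLN stayed between 18.57 and 18.78. The share of all probes so separated was not computed.

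The release channel and its voltage sensor were both lower in HS pigs. For RYR1, Creole TN arrays ranged from 15.80 to 16.39 (median 16.02) and Creole HS arrays from 15.41 to 15.94 (median 15.68). F1 TN arrays ranged from 15.48 to 16.15 (median 15.95), and the 5 F1 HS arrays were at 15.53, 15.61, 15.68, 15.82 and 15.93. In Large White pigs, TN arrays ranged from 15.79 to 16.16 (median 16.01) and HS arrays from 15.28 to 16.29 (median 15.95). In Creole pigs 5 of 6 HS arrays were below every TN array, whereas in Large White pigs the HS arrays held both the lowest and the highest value. The difference of RYR1 was -0.21 (SE 0.08, limma adjusted p = 0.0499), with 13 of 17 HS arrays below the TN mean of their breed. This call stood next to the threshold. It was lost when any 1 of 24 arrays was left out and held without any 1 of the other 11. Over all 35 of these fits the limma adjusted p ran from 0.0195 to 0.0876. Without the pair of low arrays the difference was -0.15 (limma adjusted p = 0.142).

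The other RYR1 probes lay in the same direction. The probe nearest the 5′ end of those printed, A_72_P458783, fell by 0.48 (SE 0.11, limma adjusted p = 0.00446) and was below the breed's TN mean on 17 of 17 HS arrays. Probe O7166 was also lower on 17 of 17, with a difference of -0.30 (limma adjusted p = 0.000900). The other 2 gave -0.19 (adjusted p = 0.169) and -0.26 (adjusted p = 0.0856) by limma. Thus 3 of 5 RYR1 probes passed, and all 5 differences were negative, from -0.48 to -0.19. Apart from the highest-mean probe, those that passed were the dimmest of the 5, whose mean log2 values ran from 7.13 to 15.87.

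CACNA1S, the subunit that senses the membrane voltage, was lower in HS pigs over the 3 breeds together. Creole TN arrays ranged from 11.82 to 12.73 (median 12.14) and Creole HS arrays from 11.20 to 12.14 (median 11.36). F1 TN arrays ranged from 11.40 to 11.96 (median 11.85), and the 5 F1 HS arrays were at 11.01, 11.17, 11.35, 11.74 and 11.81. Large White TN arrays ranged from 11.35 to 12.47 (median 12.01) and Large White HS arrays from 10.45 to 11.86 (median 11.55). The groups overlapped in every breed, with 5 of 6 Creole, 3 of 5 F1 and 2 of 6 Large White HS arrays below all TN arrays of their breed. The difference was -0.52 (SE 0.12, limma adjusted p = 0.00501), and 15 of 17 HS arrays were below the TN mean of their breed. It held when each array in turn was left out, from -0.56 to -0.46, and was -0.44 (limma adjusted p = 0.0137) without the pair of low arrays. With a single probe, no second stretch of the transcript was measured.

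JPH1, which bridges the surface membrane and the reticulum, was at 13.62 ± 0.26 (SD, n = 18) in the TN pigs and at 13.57 ± 0.34 (SD, n = 17) in the HS pigs, a difference of -0.05 (SE 0.10, limma adjusted p = 0.787). The means of its 6 groups covered 0.22.

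Of the calcium pumps, the fast form was lower in HS pigs and the slow form did not pass the test. For ATP2A1, Creole TN arrays ranged from 15.01 to 15.67 (median 15.14) and Creole HS arrays from 13.97 to 14.75 (median 14.48). F1 TN arrays ranged from 14.64 to 15.21 (median 15.03), and the 5 F1 HS arrays were at 14.32, 14.71, 14.86, 15.05 and 15.09. In Large White pigs, TN arrays ranged from 14.47 to 15.15 (median 14.92) and HS arrays from 13.62 to 15.06 (median 14.57). The Creole groups did not overlap, whereas in F1 1 of 5 and in Large White 2 of 6 HS arrays were below all TN arrays. The difference of ATP2A1 was -0.46 (SE 0.11, limma adjusted p = 0.00353), with 14 of 17 HS arrays below the TN mean of their breed. It ranged from -0.50 to -0.41 when each array in turn was left out, always past the threshold, and was -0.37 (limma adjusted p = 0.00790) without the pair of low arrays.

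The other ATP2A1 probes did not all move together. The probe A_72_P417112, which lies near the 5′ end of the recorded sequence, gave -0.51 (SE 0.14, limma adjusted p = 0.0122). CUST_452_PI427286967 shared 59 bases with the highest-mean probe A_72_P127906 and gave the same -0.46 (limma adjusted p = 0.00357). Probe A_72_P141731 gave 0.22 (limma adjusted p = 0.102), the opposite sign. Probe O1789 gave -0.29 (limma adjusted p = 0.0300) although 29 of its bases are the reverse complement of the highest-mean probe, so that it reads the other strand there. That run is shown in capitals, first as O1789 carries it and then as A_72_P127906 carries it.
O1789: TTTCATCTTCTGGATCTGTGACACGGTTC
A_72_P127906: GAACCGTGTCACAGATCCAGAAGATGAAA
Values of O1789 and A_72_P127906 had a Pearson r of 0.777 over the 35 arrays, which share groups and normalisation. Thus 4 of 5 ATP2A1 probes passed, all lower in HS pigs. Of these 4, A_72_P127906, CUST_452_PI427286967 and O1789 form 1 stretch and are not separate measurements.

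**Figure D2:**
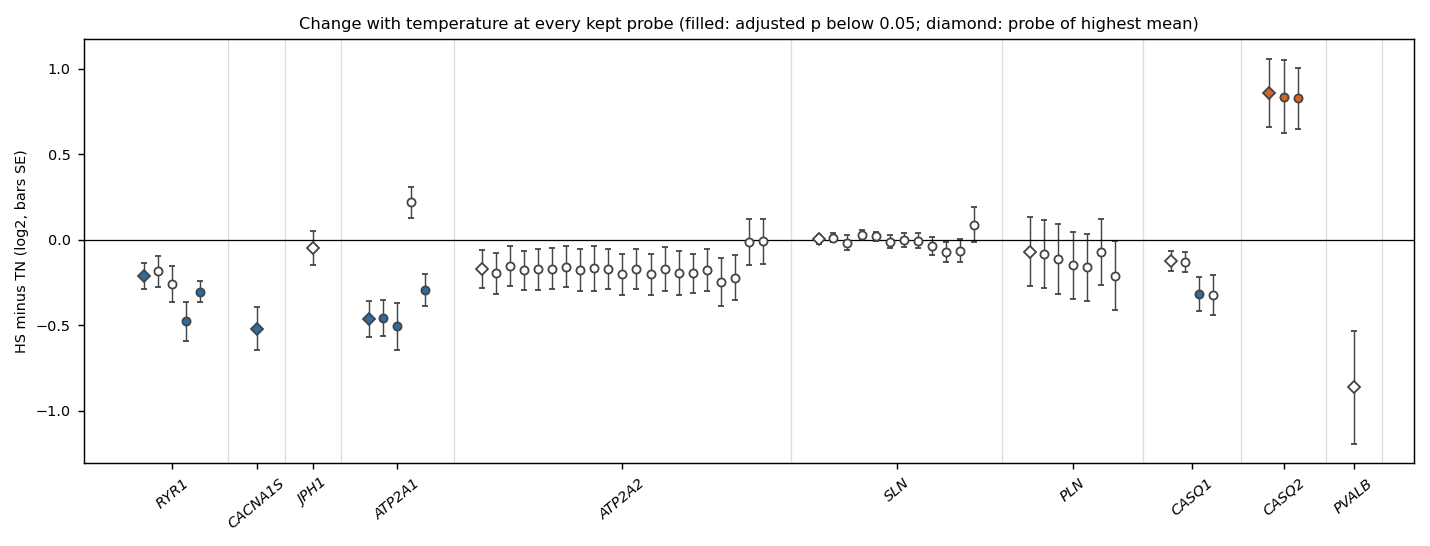
Difference between HS and TN on the log2 scale (y axis) with its standard error for each of the 60 kept probes, grouped by gene (x axis), with filled symbols for adjusted p below 0.05 and a diamond for the highest-mean probe of each gene. All 3 CASQ2 probes rose, 4 of 5 ATP2A1 and 3 of 5 RYR1 probes fell, and none of the 21 ATP2A2, 12 SLN or 7 PLN probes passed.

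For ATP2A2, the slow pump, Creole TN arrays ranged from 13.63 to 14.90 (median 14.28) and Creole HS arrays from 13.76 to 14.44 (median 14.18). F1 TN arrays ranged from 13.83 to 14.49 (median 14.32), and the 5 F1 HS arrays were at 14.16, 14.28, 14.31, 14.43 and 14.50. Large White TN arrays ranged from 14.31 to 15.08 (median 14.75) and Large White HS arrays from 13.47 to 14.80 (median 14.44). The groups overlapped in every breed. The difference of ATP2A2 was -0.17 (SE 0.11, limma adjusted p = 0.299). Its 21 probes gave differences from -0.25 to -0.01, among them -0.20 (limma adjusted p = 0.247) for the printed A_72_P576059, and 0 of 21 passed.

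The pump inhibitors gave no call. SLN lay between 18.57 and 18.78 on all arrays, with a difference of 0.00 (SE 0.03, limma adjusted p = 0.943). Its 12 probes gave -0.07 to 0.09 and 0 passed. Quantile normalisation gives all arrays the same values at the brightest ranks, where SLN lies, which limits how far its normalised value can move. After scaling to the 75th percentile alone, the SLN difference was -0.21 (limma adjusted p = 0.0540). PLN, which restrains SERCA2 in slow fibres, was at 12.71 ± 0.63 (SD, n = 18) in the TN pigs and at 12.63 ± 0.62 (SD, n = 17) in the HS pigs, with a difference of -0.07 (SE 0.20, limma adjusted p = 0.856). Its 7 probes gave -0.21 to -0.07, and 0 passed.

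The calsequestrins differed from each other. For CASQ2, the cardiac and slow form, Creole TN arrays ranged from 9.97 to 11.96 (median 11.21) and Creole HS arrays from 11.12 to 13.22 (median 12.34). F1 TN arrays ranged from 10.044 to 12.004 (median 11.52), and the 5 F1 HS arrays were at 11.96, 12.06, 12.26, 12.41 and 12.59. In Large White pigs, TN arrays ranged from 10.46 to 11.93 (median 11.33) and HS arrays from 10.74 to 12.31 (median 12.14). In each breed 4 HS arrays were above every TN array of that breed, and 12 of 17 HS arrays were above all 18 TN arrays. The rise of CASQ2 was 0.86 (SE 0.20, limma adjusted p = 0.00405), with 14 of 17 HS arrays above the TN mean of their breed. Its other probes gave 0.84 (limma adjusted p = 0.00755) and 0.83 (limma adjusted p = 0.00203). The rise was past the threshold in all 35 fits that left out 1 array, from 0.78 to 0.94, and was 1.00 (limma adjusted p = 0.000857) without the pair of low arrays.

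CASQ1, the form found in fast and slow fibres, was at 18.11 ± 0.10 (SD, n = 18) in the TN pigs and at 17.98 ± 0.21 (SD, n = 17) in the HS pigs, a difference of -0.13 (SE 0.06, limma adjusted p = 0.130) with 13 of 17 HS arrays below the TN mean of their breed. Its dimmer probe A_72_P414408 gave -0.32 (SE 0.10, limma adjusted p = 0.0238), and 1 of 4 kept probes passed. Like SLN, CASQ1 lies among the brightest ranks, and its difference was -0.31 (limma adjusted p = 0.0333) after scaling to the 75th percentile alone.

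PVALB, the cytosolic buffer of fast fibres, had the widest spread of the 10 genes (SD 1.12 over the 35 arrays). Creole TN arrays ranged from 11.86 to 13.65 (median 13.29) and Creole HS arrays from 10.52 to 14.15 (median 11.38). F1 TN arrays ranged from 11.24 to 13.97 (median 13.10), and the 5 F1 HS arrays were at 10.77, 11.86, 12.47, 12.54 and 12.98. Large White TN arrays ranged from 10.96 to 13.32 (median 12.28) and Large White HS arrays from 10.29 to 12.48 (median 11.81). In Creole pigs 4 of 6 HS arrays were below every TN array and 1 was above them all. The difference of PVALB was -0.86 (SE 0.33, limma adjusted p = 0.0696), as large as that of CASQ2 but with a wider spread, and it did not pass. A further probe, which the files name PVALB1 and which the rule leaves out, gave -0.82 (limma adjusted p = 0.0528).

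The arrays were hybridised on 5 slides, and slides 1 to 4 each held 4 HS and 4 TN arrays. The mean of HS minus that of TN was above 0 for CASQ2 on each of these 4 slides, from 0.590 to 1.103. It was below 0 on each of them for ATP2A1 (-0.83 to -0.03), CACNA1S (-1.10 to -0.13) and RYR1 (-0.46 to -0.02). The smallest values of ATP2A1 and CACNA1S came from slide 2, where the mean of the within-breed differences was 0.03 for ATP2A1 and -0.01 for CACNA1S. With slide as a block, ATP2A1 gave -0.47 (adjusted p = 0.00343), CACNA1S -0.53 (adjusted p = 0.00332), RYR1 -0.21 (adjusted p = 0.0452) and CASQ2 0.86 (adjusted p = 0.00493) by limma. PVALB then passed, at -0.93 (limma adjusted p = 0.0273), with lower HS means on 3 of 4 slides.

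Some markers of other cell types differed with temperature. The counts stand beside 7.73% of all probes higher and 8.30% lower in HS pigs. Of 15 kept leukocyte markers 4 were higher in HS pigs and 0 lower, with a median of 0.70. The mean of the list ranged from 7.43 to 9.86 on TN and from 8.50 to 10.31 on HS arrays. The general leukocyte marker PTPRC was at 10.99 in TN and 10.97 in HS pigs, and CD4 and ITGAM were not kept. Of 15 connective tissue markers 6 were higher and 0 lower, with list means from 10.76 to 12.20 on TN and from 11.70 to 12.46 on HS arrays. Over the 35 arrays, the leukocyte mean had a Pearson r of -0.79 with ATP2A1, -0.72 with CACNA1S, -0.56 with RYR1 and 0.17 with CASQ2. With the leukocyte mean as a covariate, ATP2A1 gave -0.26 (adjusted p = 0.0271), CACNA1S -0.32 (adjusted p = 0.0519), RYR1 -0.12 (adjusted p = 0.322) and CASQ2 0.90 (adjusted p = 0.00867) by limma.

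With array brightness as a covariate, CASQ2 alone of the 10 genes passed, at 0.97 (limma adjusted p = 0.00745). ATP2A1 was then at -0.29 (adjusted p = 0.0675), CACNA1S at -0.27 (adjusted p = 0.0899) and RYR1 at -0.14 (adjusted p = 0.339) by limma. The mean of the connective tissue list had a Pearson r of -0.63 with ATP2A1, -0.49 with CACNA1S, -0.38 with RYR1 and 0.43 with CASQ2 over the 35 arrays, and its part in these differences was not tested.

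Fibre type markers were read beside these genes. Of 8 kept fast fibre markers 2 were lower in HS pigs (median -0.06), and of 6 slow fibre markers 1 was lower (median -0.09). Of all probes 8.30% were lower. The fast markers that passed were the myosin MYH2, at -0.21 (adjusted p = 0.0144), and the troponin TNNI2, at -0.15 (adjusted p = 0.0262) by limma. The slow marker that passed was the tropomyosin TPM3, at -0.29 (limma adjusted p = 0.0310). The myosin of slow fibres, MYH7, gave -0.02 (limma adjusted p = 0.862), and the fast myosin MYH4 gave -0.01 (limma adjusted p = 0.806). MYH7 and MYH4 lie among the brightest ranks, like SLN, where quantile normalisation limits how far a value can move. The part of fibre composition in the differences of the 10 genes was not tested.

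For CASQ2, cardiac and nerve markers had the largest correlations among the 11 marker lists, given here as descriptions. Over the 35 arrays CASQ2 had a Pearson r of 0.71 with the mean of the 4 kept cardiac markers and of 0.68 with that of the 7 nerve and Schwann cell markers, beside 0.21 and 0.13 for ATP2A1. The cardiac mean ranged from 11.01 to 12.81 on TN and from 11.17 to 12.96 on HS arrays, and the nerve mean from 8.43 to 9.01 and from 8.43 to 9.18. In each list 1 marker was higher in HS pigs and 0 were lower, beside 7.73% of all probes higher. These were TNNT2, the cardiac troponin T, at 1.38 (limma adjusted p = 0.0366), and NEFM, a neurofilament, at 1.35 (limma adjusted p = 0.00197). The part of these markers in the rise of CASQ2 was not tested. MYH2, TNNI2, TPM3, TNNT2 and NEFM were chosen for mention after their values were seen.

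Temperature was then compared within each breed, with 1 mean per group. In Creole pigs ATP2A1 fell by 0.74 (SE 0.17, limma adjusted p = 0.0311), the only 1 of 10 genes past the threshold, beside 1.91% of all probes (0.874% lower). CASQ2 gave 1.08 (adjusted p = 0.0795), CACNA1S -0.67 (adjusted p = 0.0800) and RYR1 -0.36 (adjusted p = 0.113) by limma in Creole pigs. The ATP2A1 call in Creole pigs was lost without any 1 of 7 arrays (Creole TN replicates 1, 5 and 6, and Creole HS replicates 1, 3, 5 and 6). Over all 35 fits that left out 1 array, differences ran from -0.80 to -0.64, with a limma adjusted p of up to 0.116.

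In F1 pigs 0 of 10 genes passed by limma, 1 with an unadjusted p under 0.05, beside 0.00482% of all probes. CASQ2 gave 0.92 (adjusted p = 0.445), ATP2A1 -0.21, CACNA1S -0.32 and PLN 0.35. In Large White pigs 0 of 10 passed by limma as well, 3 with an unadjusted p under 0.05, again beside 0.00482% of all probes. CACNA1S gave -0.55 (adjusted p = 0.192), ATP2A2 -0.45 (adjusted p = 0.207), ATP2A1 -0.42 (adjusted p = 0.217), CASQ2 0.58 (adjusted p = 0.396) and PLN -0.41.

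**Figure D3:**
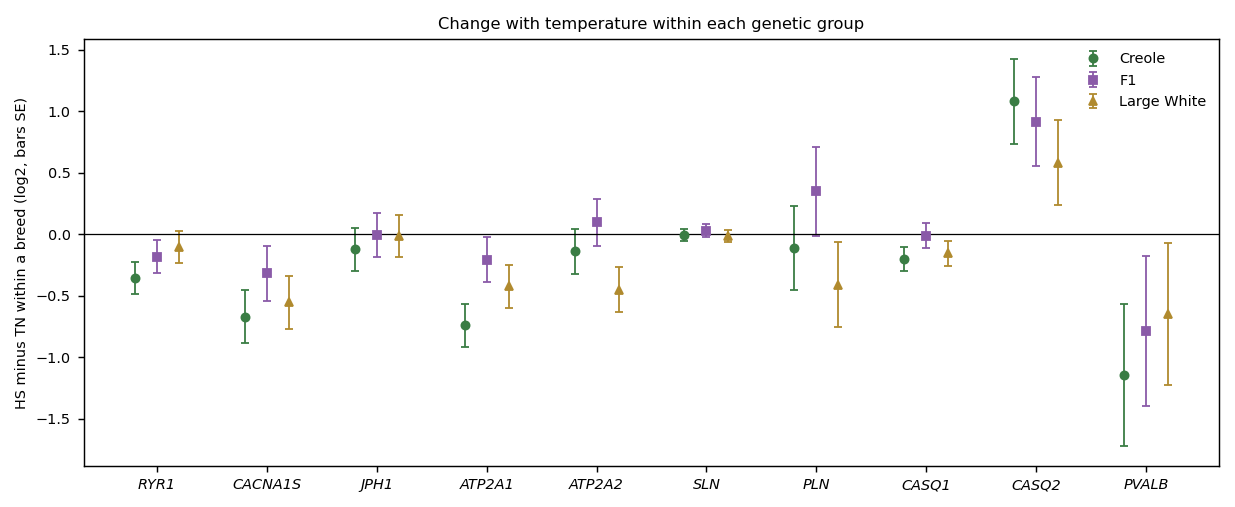
Difference between HS and TN within each breed on the log2 scale (y axis), with its standard error, for the 10 genes (x axis). CASQ2 was above 0 in all 3 breeds, and CACNA1S, ATP2A1, RYR1 and PVALB were below 0 in all 3, whereas ATP2A2 and PLN had their signs divided between F1 and the parental breeds.

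The breed by temperature interaction passed for 0 of 10 genes and 0% of all probes by limma, with 0 of 10 genes at an unadjusted p under 0.05 (3 of 60 probes) and a lowest adjusted p of 0.963. The call of ATP2A1 in Creole pigs was therefore not shown to be particular to that breed.

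Breeds were compared over both temperatures. For Creole against Large White, 0 of 10 genes passed by limma, with 0 at an unadjusted p under 0.05, beside 3.64% of all probes. Of the 60 probes 0 passed, and the 10 with an unadjusted p under 0.05 were all probes of ATP2A2 (lowest adjusted p 0.213 by limma). The widest differences were those of PVALB, at 0.65 (limma adjusted p = 0.479), and ATP2A2, at -0.27 (limma adjusted p = 0.327), for Creole minus Large White. For F1 against Large White 0.525% of all probes passed, for F1 against Creole 0.477%, and for F1 against the midpoint of its parents 0.246%. In each of these 3 comparisons 0 of 10 genes and 0 of 60 probes passed by limma, and 0 had an unadjusted p under 0.05. These breed comparisons share arrays with each other.

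In the order of the 6 group means, all 3 TN groups stood above all 3 HS groups for RYR1, CACNA1S, ATP2A1, CASQ1 and PVALB. For CASQ2 all 3 HS groups stood above all 3 TN groups. The share of all probes with such an order was not computed, so the order is not read as a trait of these genes. For RYR1 the lowest TN mean (15.897) and the highest HS mean (15.891) were nearly the same, as they were for CASQ1 (18.036 and 18.025) and PVALB (12.17 and 12.13), all within the SDs of these groups. In CASQ2 the step between the lowest HS mean and the highest TN mean was 0.45, smaller than the SD of the Large White HS group (0.67), and the groups next to each other in the order overlapped. For ATP2A2 the highest mean was that of Large White TN (14.73 ± 0.29, SD, n = 6), 0.39 above the next, and the other 5 means lay between 14.16 and 14.34. For SLN the 6 means covered 0.04, and for PLN 0.59 with SDs of up to 0.91, so that neighbours in the order did not differ beyond their spread.

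Pairs of related genes (CASQ1 and CASQ2, ATP2A1 and ATP2A2, SLN and PLN) were compared within arrays, as the difference of their log2 values. Only changes of these differences between groups are read, since the level depends on the probes. A permutation test of 100000 permutations was run for temperature and for 3 breed contrasts in each pair, and p-values were adjusted over the 12 tests. Both calsequestrins bind calcium in the store, and CASQ1 minus CASQ2 fell from 6.87 ± 0.60 (SD, n = 18) in the TN pigs to 5.90 ± 0.49 (SD, n = 17) in the HS pigs. Adjusted for breed, the change was -0.98 (SE 0.19, permutation p = 1e-05, the smallest these permutations can give, adjusted 0.00012), lower on 16 of 17 HS arrays. It was -1.06 without the pair of low arrays, and on slides 1 to 4 it was -1.10, -0.67, -1.35 and -0.66. Taken one by one, the probes of CASQ2 gave 0.83 to 0.86 and those of CASQ1 -0.32 to -0.13. The log ratio holds the same CASQ2 values that passed above, so it is not separate support for the rise of CASQ2.

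For the pumps, ATP2A1 minus ATP2A2 changed by -0.29 with heat (SE 0.12, permutation p = 0.0169, adjusted 0.0507), which did not pass, and lay lower on 13 of 17 HS arrays. It was below 0 on slides 1 to 4, from -0.80 to -0.07. By breed, its mean went from 0.91 in TN to 0.31 in HS pigs for Creole, from 0.77 to 0.47 for F1 and from 0.16 to 0.19 for Large White, and whether these changes differ between breeds was not tested. Between breeds the same difference had its lowest means in Large White pigs. Large White TN arrays ranged from -0.16 to 0.47 (median 0.20), F1 TN arrays from 0.56 to 0.90 (median 0.82) and Creole TN arrays from 0.19 to 1.52 (median 0.87). All 6 F1 TN arrays were above all 6 Large White TN arrays, and the Creole TN arrays were the most spread. How many other pairs of genes separate these groups in this way was not computed. The HS arrays overlapped, from -0.25 to 0.62 (median 0.22) for Large White, from -0.11 to 0.92 (median 0.55) for F1 and from 0.04 to 0.59 (median 0.30) for Creole. Over both temperatures, F1 exceeded Large White by 0.45 (SE 0.12, permutation p = 0.00219, adjusted 0.0131), which held when each array in turn was left out and was above 0 on slides 1 to 4 (0.64, 0.30, 0.57 and 0.31). Creole exceeded Large White by 0.43 (SE 0.15, permutation p = 0.0101, adjusted 0.0404), but 13 arrays each ended this call when left out, and on slide 4 the value was -0.29. F1 minus Creole was 0.01 (permutation p = 0.953). F1 and Creole were both compared with the same Large White arrays. Each breed came from 3 blocks of littermates, and pigs were permuted singly. The p-values of these breed contrasts therefore do not measure the spread between litters.

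**Figure D4:**
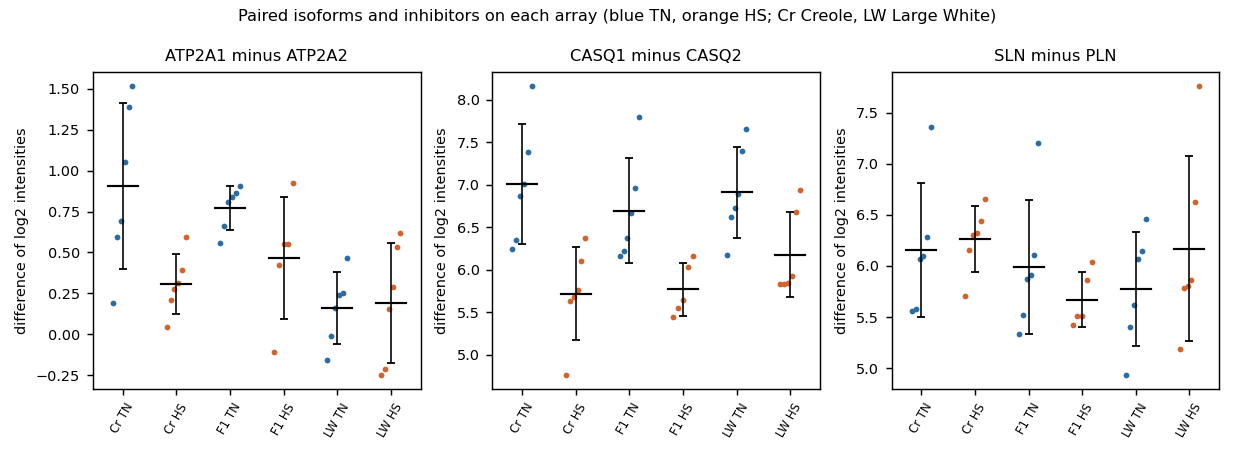
Difference of log2 intensities between paired genes on each array (y axis) by breed and temperature (x axis), with TN in blue, HS in orange, and group mean and SD in black. CASQ1 minus CASQ2 was lower in HS pigs of each breed, ATP2A1 minus ATP2A2 was higher in F1 TN than in Large White TN pigs without overlap, and SLN minus PLN gave no call. How many other pairs of genes separate groups in this way was not computed.

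SLN minus PLN was at 5.97 ± 0.61 (SD, n = 18) in the TN pigs and at 6.06 ± 0.61 (SD, n = 17) in the HS pigs, a change of 0.07 (SE 0.21, permutation p = 0.731, adjusted 0.797). Its largest breed contrast, F1 minus Creole, was -0.37 (SE 0.22, permutation p = 0.105, adjusted 0.252).

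Over the 35 arrays the 10 genes fell into patterns, given here as descriptions since all points share the same arrays, groups and normalisation. ATP2A1 had a Pearson r of 0.80 with CACNA1S, 0.76 with CASQ1, 0.70 with JPH1 and 0.70 with PVALB. After subtracting group means the value for ATP2A1 and CACNA1S was 0.75. The slow pump ATP2A2 had an r of 0.80 with its inhibitor PLN (0.86 within groups), and both followed slow fibre genes, with 0.83 between ATP2A2 and MYH7 and 0.85 between PLN and TNNI1, a troponin of slow fibres. ATP2A1 had an r of 0.76 with the fast myosin MYH2 and of 0.07 with MYH7. CASQ2 did not follow either group, with 0.27 for MYH7, 0.04 for ATP2A2 and 0.17 for CASQ1, although within groups CASQ1 and CASQ2 had 0.55. The fast myosin MYH1, with 0.64 for ATP2A1, was also chosen after its values were seen.

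**Figure D5:**
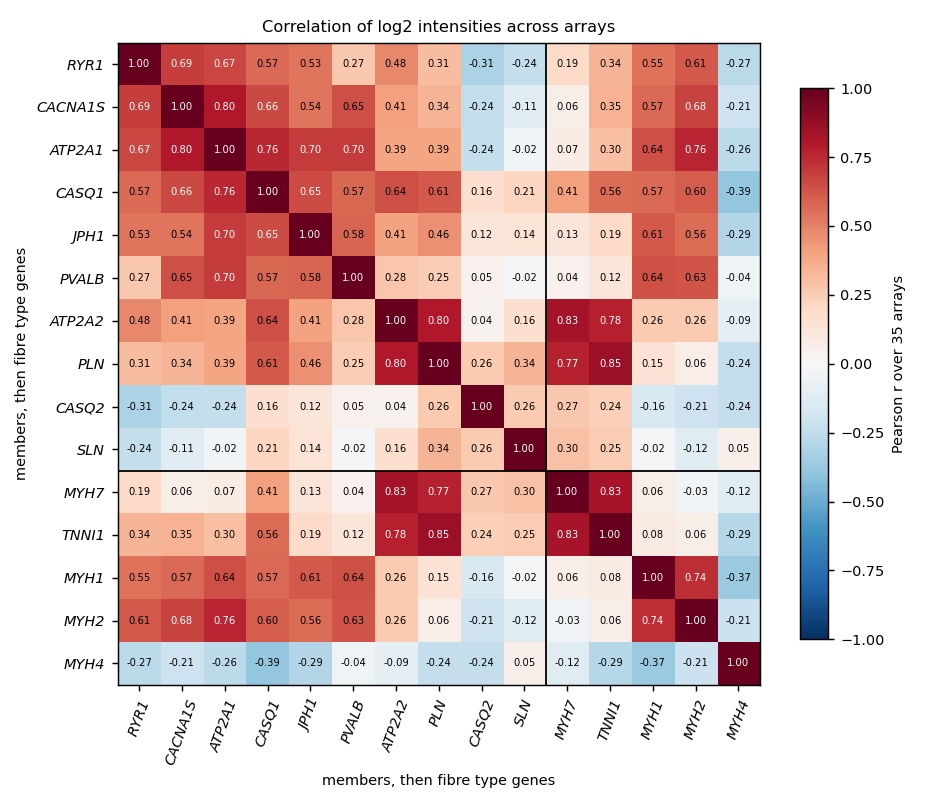
Pearson r of log2 intensities over the 35 arrays between the 10 genes and 5 fibre type genes (both axes; colour and printed value give r). ATP2A1, CACNA1S, CASQ1, JPH1 and PVALB had r from 0.54 to 0.80 with each other, ATP2A2 and PLN had 0.77 to 0.85 with MYH7 and TNNI1, and CASQ2 and SLN had no value above 0.34 with any other gene shown.

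Among 9257 other named genes, the one most like each gene over the 35 arrays was GYS1 for RYR1 (r 0.79), PGM1 for CACNA1S (0.92), PPP3CB for ATP2A1 (0.91), MYL2 for ATP2A2 (0.86), PRKACA for CASQ1 (0.89) and TNNI1 for PLN (0.85). GYS1 makes glycogen, PGM1 interconverts glucose phosphates, PPP3CB is a catalytic subunit of calcineurin, and MYL2 is the slow myosin light chain. For PVALB it was HIVEP2 (0.83), for JPH1 RRAGD (0.85), and for SLN CILP, at only 0.55. The gene most like CASQ2 was MYH3 (r 0.89), the myosin of embryonic muscle, which itself rose by 1.80 (SE 0.51, limma adjusted p = 0.0141) in HS pigs.

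Other genes of calcium handling were read from a list of 57, of which 43 had a kept probe. For temperature 9 of the 43 passed (20.9%, beside 16.0% of all probes), 8 lower and 1 higher in HS pigs, with a median of -0.14. This count was 14 without F1 TN replicate 2 and 14 without Large White TN replicate 6, and 3 with the leukocyte mean and 2 with array brightness as a covariate. Shares of all probes in these settings are not given. Around the voltage sensor and the junction 2 of 10 passed. CACNA2D1, an accessory subunit of the sensor, gave -0.26 (adjusted p = 0.0323), and the scaffold HOMER1 gave -0.44 (adjusted p = 0.0254) by limma. Among partners of the release channel 3 of 15 passed. S100A1, a calcium-binding partner of RYR1 and of the pumps, was at 13.39 ± 0.77 (SD, n = 18) in the TN pigs and at 14.49 ± 0.73 (SD, n = 17) in the HS pigs. It rose by 1.11 (SE 0.25, limma adjusted p = 0.00294) and lay above the TN mean of the breed on 15 of 17 HS arrays. RYR3, a minor release channel, fell by 0.31 (limma adjusted p = 0.000697) and was lower on 17 of 17, and CALM2, a calmodulin gene, fell by 0.21 (limma adjusted p = 0.0137).

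Among pumps, exchangers and entry channels 1 of 9 passed, the store sensor STIM1, at -0.16 (limma adjusted p = 0.0425). Of the genes that signal in response to calcium 3 of 9 passed, all lower. The calcineurin subunits PPP3CB and PPP3R1 gave -0.29 (adjusted p = 0.0142) and -0.34 (adjusted p = 0.00714), and the kinase CAMK2G gave -0.37 (adjusted p = 0.0125) by limma. In the 4 breed comparisons 0 of 43 passed by limma. An unadjusted p under 0.05 was found for 2 of them for Creole against Large White, 4 for F1 against Large White, 2 for F1 against Creole and 3 for F1 against the midpoint.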

How the data were processed

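RNA of 35 longissimus dorsi samples was labelled with Cy3 by the authors, hybridised to 1-colour Agilent porcine arrays and scanned, and the spots were read with Feature Extraction 10.10.1.1. In the deposited scanner files each spot has a linear intensity and quality flags. The log2 values of the deposited value table come from the authors' quantile normalisation and a filter on expressed probes. All 40649 of its probes were found by name, and the values of the member probes differed by at most 0.019 from those recomputed here.

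Control spots were left out. Median pixel intensities, with no background subtracted, were quantile-normalised and their log2 was taken. The 105 spots with an outlier flag were set to missing. A probe was kept if any group had it well above background on 75% or more of its arrays (41517 of 60305). The number of arrays limits the precision. Genes were named from the gene name in the files, and other genes also through accessions in reference gene tables. No genome position was used.

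An additive model of temperature and breed was fitted in R 4.3.3 (limma 3.58.1). Temperature within breeds and the interaction were fitted with 1 mean per group. The labels do not give the random terms of the study model (pen, slaughter day, father, mother), so none was fitted. Log ratios of paired genes were tested by 100000 permutations in Python 3.11.15, two-sided, within breeds for temperature and within temperatures for breeds. The threshold was an adjusted p of 0.05.

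The 10 members, the list of other calcium genes, the marker lists and the tests were chosen with earlier results of these data known. The text names all members, the listed calcium genes past the threshold for temperature or for Creole against Large White, the gene most correlated with each member, and MYH7 and MYH4. Other marker genes (MYH1, MYH2, TNNI2, TPM3, TNNT2, NEFM, PTPRC, CD4, ITGAM, MYH6 and NPPB) are named outside this rule, after their values or their absence from the kept probes were seen. The fits were tested on simulated data in which 200 of 41465 probes differed by 1 log2. Recovery was 97.5% for temperature, 96.5% for Creole against Large White, 86.5% to 90.5% for temperature within breeds and 78% for the interaction. In simulated permutation tests without a change, 3% to 6% had a p under 0.05.

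Alternatives were scaling to the 75th percentile, the median or spike-in controls, normexp background correction, the deposited table, stricter and no filters, slide as a block, array weights, array brightness or the leukocyte marker mean as a covariate, no breed term, other probes of a gene, and each array left out.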

Additional observations from a re-analysis of the deposited data

Results flagged for a closer look

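In 6 of the 78 combinations of a group and a gene or log ratio that were looked at, 1 array lay far from the rest of its group, where chance gives about 1 in 20, or 3.9. The gap to the nearest array is given as a share of the group's whole range. For ATP2A1, Creole TN replicate 1 was the highest of its group at 15.67, with the next at 15.20 (share 0.722). Creole HS replicate 1 was the lowest of its group for ATP2A1 at 13.97, with the next at 14.47 (0.642), for CASQ1 at 17.50, with the next at 17.99 (0.777), and for JPH1 at 12.96, with the next at 13.55 (0.693). Large White HS replicate 5 was the lowest of its group for CASQ1 at 17.42, with the next at 18.02 (0.828). F1 TN replicate 2 was the lowest of its group for JPH1 at 13.19, with the next at 13.68 (0.783).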

How the results depend on the processing

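The rise of CASQ2 and the change of CASQ1 minus CASQ2 with temperature, and the contrast of F1 and Large White in ATP2A1 minus ATP2A2, stayed past the threshold in every alternative run for them. Beside each array left out, these alternatives were 13 for CASQ2 but only 5 for the log ratios. The 5 were 75th percentile and median scaling, normexp, the deposited table and omission of the pair of low arrays. Log ratios were not run with spike-in scaling, slide as a block, array weights or either covariate. Their calls therefore did not face the same alternatives as those of the genes. CASQ1 minus CASQ2 holds the same CASQ2 values as the rise of CASQ2 and is not a separate result. For the contrast of F1 and Large White, leaving out 1 array cannot show an effect of litter. Each other call was lost under at least 1 alternative. The number of the 10 genes past the threshold for temperature was 4, and became 1 when array brightness entered as a covariate and 2 when the leukocyte mean did. It ranged from 3 to 5 when each array was left out. The share of all probes that passed in each of these settings is not given, here or for the counts below. A change in a count is therefore not read as particular to the calcium genes. ATP2A1 passed in 12 of 13 alternatives, CACNA1S in 11, RYR1 in 7, and PVALB in 2 (slide as a block, and array weights at -0.88, adjusted p = 0.0404). RYR1 failed with spike-in scaling (-0.17), without the filter, without the breed term, with either covariate and without the pair of low arrays. CASQ1 passed with scaling to the 75th percentile or the median (-0.23). Signs turned only among values that passed in neither setting, SLN, PLN and JPH1 keeping theirs in 9 of 13 alternatives each, and at ATP2A1 probe A_72_P141731, at 0.22.

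Within Creole pigs the count of 1 became 0 under the brightness covariate (ATP2A1 at -0.53) and 0 under the leukocyte covariate (-0.40), and ranged from 0 to 2 with arrays left out. ATP2A1 minus ATP2A2 passed for temperature with scaling to the 75th percentile (-0.31, adjusted 0.0366) or the median (-0.31) and with normexp (-0.30), and ranged from -0.33 to -0.24 with arrays left out. Its contrast of Creole and Large White ranged from 0.36 to 0.49. SLN minus PLN for F1 minus Creole ranged from -0.50 to -0.26 and passed only without F1 TN replicate 2. Of the 43 other calcium genes 9 passed for temperature, 17 with scaling to the 75th percentile, 2 with spike-in scaling, 16 with array weights, 2 with brightness, 3 with the leukocyte mean, and 7 to 14 with arrays left out. For Creole minus Large White this count of 0 became 1 with brightness and 3 with the leukocyte mean, and 0 to 1 with arrays left out (1 without Large White HS replicate 2). The causes were not tested. The fits of the other calcium genes and of ATP2A1 within Creole pigs under these settings, and the omission of the pair of low arrays, were chosen after seeing the data.

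No paired analysis was possible because the labels give no replicate number shared between groups. The brightest probes, those of SLN and CASQ1, are held near fixed values by quantile normalisation.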

Other observations

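Markers of further cell types were read in the same arrays, as a check on what the pieces of muscle held. Of 6 kept endothelial markers 1 was lower in HS pigs and 0 higher, with a median of -0.19. Of 3 kept blood cell markers 1 was lower. Of all probes 8.30% were lower and 7.73% higher in HS pigs. Among 5 smooth muscle and 6 adipocyte markers 0 passed by limma. Between Creole and Large White pigs, 4 of 15 connective tissue, 2 of 6 endothelial, 1 of 15 leukocyte and 1 of 6 slow fibre markers passed, beside 3.64% of all probes.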
